A study of Bos indicus with 12 samples.

Results

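Stably half-methylated windows are stretches of 100 bp whose pooled cytosine methylation lay between 35 and 65% in each of 12 Nelore (*Bos indicus*) steers. They were chosen on autosomes 1 to 29 from windows with at least 4 measured cytosines, the plus and the minus strand of a CpG counting as separate cytosines. Of 57738 such windows, 387 (0.670%) met the rule, out of 193249 windows in all. Kept windows closer than 1 kb were merged into 374 loci, of which 362 held 1 window, 11 held 2 windows and 1 held 3 windows. The tissue was *Longissimus thoracis* skeletal muscle collected at slaughter and measured by reduced representation bisulfite sequencing (RRBS), with 1 library per animal. The Tough group (n = 6) had high shear force, the force needed to cut the meat and so the opposite of tenderness, and the Tender group (n = 6) had low shear force. The labels place the shear force measurement 7 days after slaughter, while the study's methods give a later day, and no animal received an experimental treatment. Both groups were taken from the extremes of a population of Nelore steers by breeding value for shear force, and no allele was selected.

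A locus can be methylated at about the middle of the scale in several ways. At imprinted genes, 1 parental allele is methylated in the germ line and the mark is kept in every cell of the body, while the other allele stays unmethylated. *GNAS*, which encodes the stimulatory G protein alpha subunit, *MEST*, a hydrolase expressed from the paternal allele, and *IGF2*, a fetal growth factor, are classical examples, and imprinted methylation then covers all CpGs of a control region on both strands. A pooled value in the same range also arises where methylation differs between cells, where methylated and unmethylated cytosines lie side by side, or where a base differs between the animal and the reference. Bisulfite turns unmethylated cytosine into a base read as thymine, so a genuine thymine cannot be told from an unmethylated cytosine. The reads were aligned to a reference genome from a Hereford (*Bos taurus*) animal, while the muscle came from indicine cattle. Muscle tissue holds fibres, fibroblasts, vessels and fat, and a shift in the share of a cell type cannot be told apart from a change within cells.

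Methylation level means methylated reads as a percent of all reads, and spreads and differences are given in percentage points. A half-methylated window held a median of 151.5 reads per animal, with extremes of 40 and 3193. The median depth per cytosine was 27.8 reads, against 24.8 over all autosomal windows with at least 4 cytosines. Only 2 half-methylated windows exceeded 100 reads per cytosine. Across the 12 libraries the total number of reads on measured cytosines ran from 14521826 to 23470740.

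The rule fixes the level and bounds the spread between animals, and both are given here as description. The mean over 12 animals ran from 40.1 to 59.2% with a median of 50.2%. The SD between animals had a median of 6.25 (2.61 to 10.2), and the distance from the lowest to the highest animal had a median of 20.2 (7.99 to 29.5). Random sampling of reads at the pooled level of each window would give a median SD of 4.15. Just inside the bounds lay the windows at chr11:105931301-105931400 and chr13:75505201-75505300, each with a lowest animal at 35%, and chr19:42731401-42731500, with a highest animal at 65%. Just outside lay chr18:11584501-11584600, with an animal at 34.97%, and chr3:98578001-98578100 and chr18:10564401-10564500, each with an animal at 65.04%. A further 3330 windows had a mean of 35 to 65% over the animals and at least 1 animal outside the bounds, and they serve below as the nearest set for comparison. In 577 of these only 1 animal was outside.

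The rule bounded the sum over a window and not its single cytosines, and in most windows they did not share the level of the window. Of the 2276 cytosines in half-methylated windows, 1192 (52.4%) had a mean of 35 to 65% over the 12 animals, while 86 were under 10% and 69 were over 90%. The highest and the lowest cytosine of a window lay a median of 48.5 points apart, with extremes of 3.70 and 97.4. The same spread was 33.2 in the other windows of intermediate mean and 4.99 over all autosomal windows with at least 4 cytosines. Every cytosine had a mean of 25 to 75% in 145 half-methylated windows (37.5%), against 52.0% of the other intermediate windows. These shares are descriptive, because the windows were chosen on sums of the same reads.

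**Figure D1:**
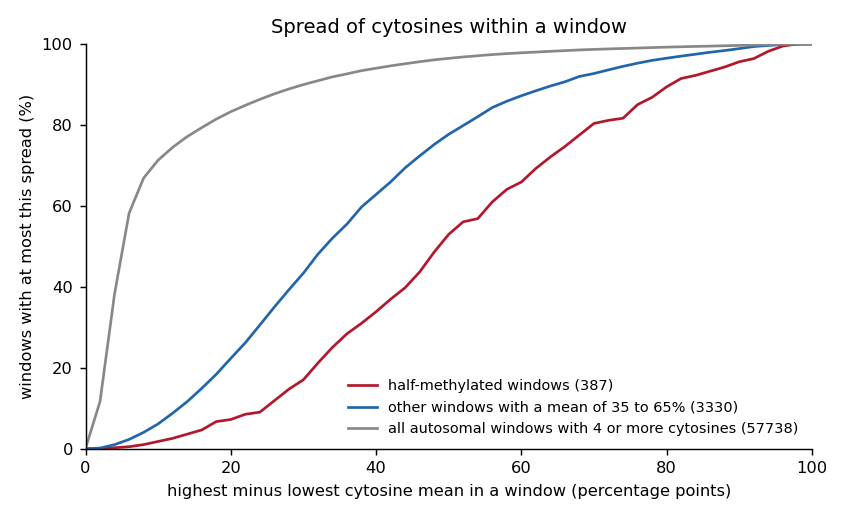
Cumulative share of windows (%, vertical axis) against the distance between the highest and the lowest cytosine mean in the window (percentage points, horizontal axis). The half-methylated windows (red) lie to the right of the other windows of intermediate mean (blue), with medians of 48.5 and 33.2, and both lie to the right of all autosomal windows with at least 4 cytosines (grey, median 4.99).

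In 27 half-methylated windows (6.98%) a cytosine under 10% stood beside one over 90%, compared with 1.86% of the other intermediate windows. Such a window is half-methylated only as a sum. The steadiest was chr29:40473601-40473700, with 4 cytosines and a level of 50.8% ± 2.64 (SD, n = 12). Its CpG at position 40473646 had 92.2% ± 6.55 on the plus strand and 18.4% ± 10.4 on the minus strand, and its CpG at 40473695 had 3.54% ± 4.91 on the plus strand and 98.0% ± 6.06 on the minus strand. As measured, the plus strand was high at the first CpG and the minus strand at the second, and none of the 4 cytosines lay near the level of the window. Whether the library preparation shaped these values was not tested.

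The same arrangement was found at chr7:58634301-58634400, where the level of the window was 49.2% ± 2.78 (SD, n = 12). There the plus and minus cytosines of the CpG at 58634301 had 95.1% ± 6.71 and 4.595% ± 7.95, and those of the CpG at 58634350 had 1.70% ± 5.08 and 94.2% ± 5.06. In chr18:56015101-56015200, at 48.8% ± 2.71, all 4 cytosines were on the minus strand. Their means were 2.05, 98.9, 1.52 and 92.2% in order of position. These 3 windows had the smallest SD between animals among the 27 and were singled out after their values had been seen.

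Methylation of a CpG is usually copied to both strands, so the 2 cytosines of a CpG are expected to have similar levels. Both entered the sums that chose the windows, and a CpG with 1 strand near 0 and the other near 100% itself supplies a pooled level near the middle, so the shares below are descriptive. In the half-methylated windows 541 CpGs were measured on both strands within the window, in 262 windows. Their strands differed by a median of 6.64 points, and by more than 25 points in 101 CpGs (18.7%). The share was 8.45% in the other intermediate windows and 1.11% over all autosomal windows with at least 4 cytosines. A difference of more than 50 points was found in 48 CpGs (8.87%), against 3.52% and 0.514%. At least 1 CpG with strands more than 25 points apart was present in 76 of the 262 windows (29.01%). Whether a base difference between Nelore and the reference lies at these CpGs was not tested. The part of the library preparation, in which digested fragments were end-repaired, was not tested either. Leaving out every CpG with strands more than 25 points apart, a step added after the data had been seen, gave 324 half-methylated windows, of which 320 were among the 387.

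Summed over each strand of a window, 283 half-methylated windows (73.1%) were covered on both strands, compared with 50.4% of all autosomal windows with at least 4 cytosines. The strands differed by a median of 10.3 points in these windows. In 45 of them (15.9%) the difference exceeded 25 points, with the plus strand higher in 25 and the minus strand higher in 20. In the other intermediate windows the share was 10.1%.

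**Figure D2:**
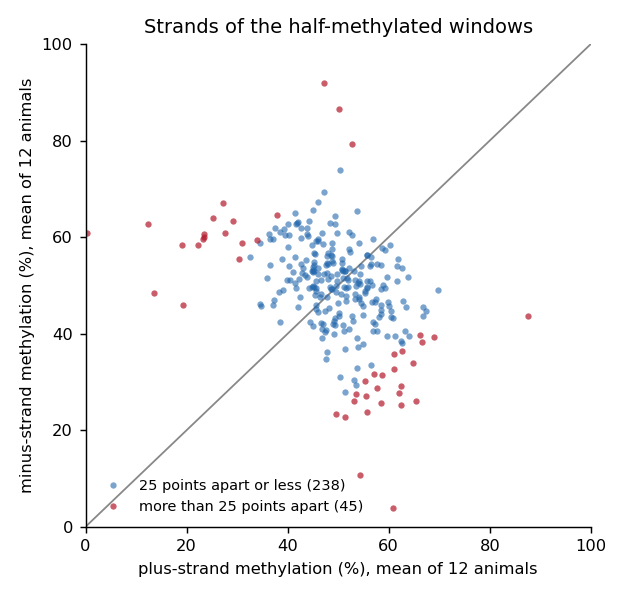
Plus-strand against minus-strand methylation (%, mean of 12 animals) for the 283 half-methylated windows covered on both strands. The line marks equal strands, and the 45 windows with strands more than 25 points apart are red (25 with the plus strand higher, 20 with the minus strand higher).

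The windows whose cytosines all shared the level are the ones in which the pooled value describes every position. The narrowest, taken by the smallest distance between the highest and the lowest cytosine after the values had been seen, were 5 in number. At chr10:100838101-100838200, 10 cytosines on both strands lay between 46.2 and 53.4%, and the window had 50.4% ± 5.09 (SD, n = 12). At chr15:24764301-24764400, 4 cytosines lay between 51.0 and 54.7%, with a window level of 52.2% ± 7.501. The cytosines of chr19:53840901-53841000 lay between 51.3 and 55.5%, those of chr17:60091001-60091100 between 47.8 and 53.8%, and those of chr11:104085601-104085700 between 42.3 and 51.3%. The smallest p-value between the groups in these 5 was 0.208 (exact two-sided permutation test, unadjusted). No strand p-value is given for them, because windows chosen for close cytosines have close strands by that choice.

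Among windows with every cytosine at 25 to 75%, the ones with the most cytosines held 12 to 14 and were likewise chosen after the values had been seen. They were chr5:27867001-27867100 (14 cytosines, 28.7 to 73.6%), chr21:27674501-27674600 (14 cytosines, 34.3 to 73.6%), chr3:118081001-118081100 (13 cytosines, 31.3 to 67.6%), chr29:43717201-43717300 (13 cytosines, 30.6 to 62.0%) and chr6:113370501-113370600 (12 cytosines, 28.0 to 69.6%). Each window therefore spanned a range wider than 30 points while staying clear of both ends of the scale.

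The locus with the most windows was chr5:25985601-25986200, with 3 half-methylated windows, 25 cytosines and 38.1 reads per cytosine. Its level was 56.7% ± 3.64 (SD, n = 12). Its cytosines ran from 15.6 to 75.05%. The 10 plus-strand cytosines had 43.2% ± 9.16 and the 15 minus-strand cytosines 61.3% ± 3.23, and the minus strand was higher in all 12 animals (exact sign-flip permutation test, two-sided p = 0.000488, the smallest it can give). This test compares the cytosines read on each strand, which need not be the same CpGs. At the 6 CpGs of the locus read on both strands the plus strand had 47.4% ± 8.41 and the minus strand 52.5% ± 6.18, with each strand higher in 6 of 12 animals. The other cytosines were read on only 1 strand, the plus strand at the edges of the locus and the minus strand in between.

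Of the named loci with 2 windows, chr16:24347901-24348300 was the most even. Its 13 cytosines lay between 42.9 and 68.0%, its level was 54.5% ± 4.31, and the plus strand had 54.4% ± 3.94 against 54.5% ± 7.84 on the minus strand. The locus chr19:27320901-27321200 was among the steadiest between animals, at 45.9% ± 3.12, and among the least even between cytosines. There the 4 plus-strand cytosines had 25.3% ± 5.97 and the 7 minus-strand cytosines 57.2% ± 2.96 (difference of 31.9 points with the minus strand higher in 12 of 12 animals, exact sign-flip p = 0.000488). Its only CpG read on both strands, at position 27320944, had 28.99 and 28.3%.

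At chr17:72825701-72825900 the plus strand had 27.7% ± 4.74 and the minus strand 52.4% ± 6.64, again with the minus strand higher in 12 of 12 animals (exact sign-flip p = 0.000488). No CpG of that locus was read on both strands, so the cytosines compared lay at different positions. At chr21:67757901-67758100 the plus strand had 40.2% ± 7.76 and the minus strand 50.1% ± 6.70 (exact sign-flip p = 0.000977), but its 5 CpGs read on both strands had 42.7% ± 8.23 and 43.6% ± 8.25. The remaining loci of 2 windows named by their number of cytosines, chr19:44156701-44157700, chr25:1356601-1357000, chr19:27545101-27545500, chr29:49541801-49542700 and chr6:104383701-104383900, had strands between 2.82 and 4.89 points apart, with the smallest exact sign-flip p at 0.0620. Their levels lay between 44.7 and 51.5%, and in each of them at least 1 cytosine lay under 25% and another above 69%. Sums over a strand hid single CpGs whose strands lay further apart. At chr6:104383701-104383900, the CpG at 104383756 had 69.9% ± 10.1 (plus) and 1.07% ± 3.70 (minus). Its CpG at 104383805 had 19.2 and 49.1%, in the same order. The CpG at 27545467 of chr19:27545101-27545500 had 46.8 and 18.6%, and that at 67758086 of chr21:67757901-67758100 had 33.2 and 64.2%. The chr25 and chr29 loci and chr19:44156701-44157700 held no CpG with strands more than 25 points apart. The sign-flip p-values are unadjusted.

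**Figure D3:**
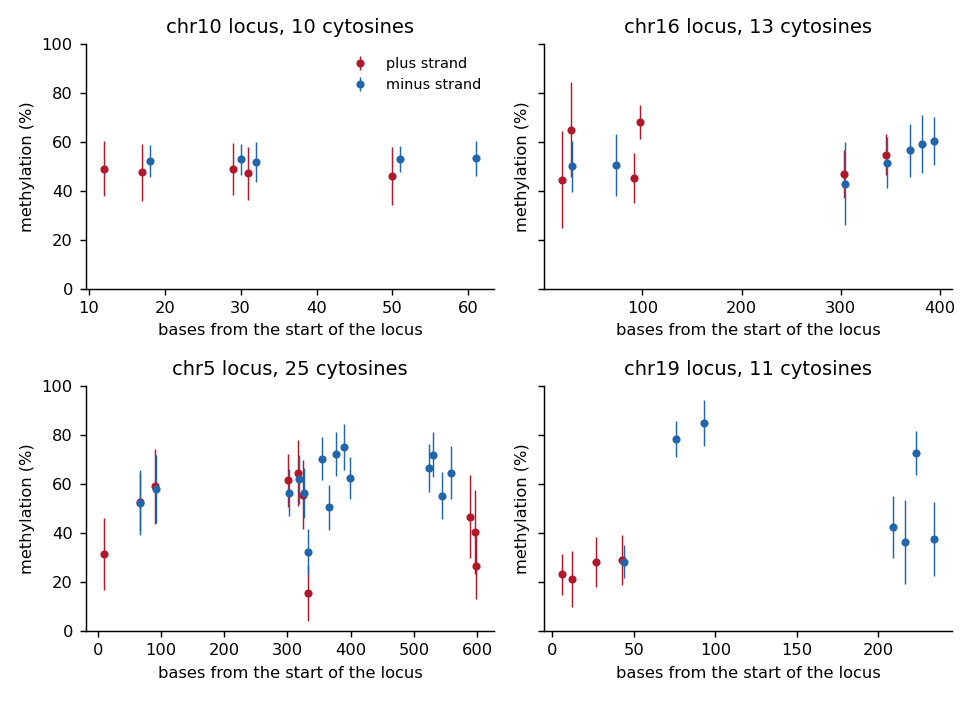
Methylation of each cytosine (%, mean and SD of 12 animals) against its distance in bases from the start of the locus, for 4 loci, with plus-strand cytosines in red and minus-strand cytosines in blue. All cytosines of the chr10 locus lie between 46.2 and 53.4% and those of the chr16 locus between 42.9 and 68.0%, while those of the chr5 locus reach from 15.6 to 75.05% and those of the chr19 locus from 21.1 to 84.8%.

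The sequence around the windows was also partly methylated, as far as it was measured. Cytosines within 1 kb that lay in no half-methylated window were measured at 3 or more positions on each side for 81 of the 387 windows. Both sides had a mean of 20 to 80% in 47 of these (58.0%), against 56.6% of 648 other intermediate windows. One side was under 20% and the other in that range for 17 windows (21.0%), and one side was over 80% and the other in that range for 9 (11.1%). Both sides were over 80% in 3 windows, under 20% in 1 window, and on opposite ends in 4. Adjacent windows of 100 bp were themselves at 35 to 65% in 48.5% (left) and 49.6% (right) of the cases measured, close to the 52.0 and 53.8% beside other intermediate windows. An island of intermediate methylation inside fully methylated DNA was thus seen in few of the windows that could be judged.

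The windows were spread over all 29 autosomes, from 0.107% of the windows with at least 4 cytosines on chr20 (1 window) to 1.03% on chr29 (21 windows). Of the 387, 129 (33.3%) lay within 5 Mb of the last measured cytosine of their chromosome, the end away from the centromere in cattle, compared with 22.2% of all autosomal windows with at least 4 cytosines and 35.5% of the other intermediate windows. The megabases with the most half-methylated windows were chr29:49000001-50000000, with 8 of 233 windows (3.43%), and chr17:72000001-73000000, with 8 of 557 (1.44%). On the X chromosome, present in 1 copy in steers, 1 of 197 windows met the same rule (0.508%, exact 95% interval from 0.0129 to 2.80%), and on unplaced sequence 5 of 218 did (2.29%, 0.749 to 5.27%). These intervals cover counting error only.

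The windows were set against 124 genes known to be imprinted in cattle, human or mouse. No gene annotation of the genome build was used, and distances were taken to the differentially methylated sites that the study lists with a gene, which reached 3 of the 124 genes. None of the 374 loci lay within 50 kb of a listed site of *GNAS*, *MEST* or *CD81*. Few windows with at least 4 cytosines were measured at that distance, 24 at *GNAS*, 24 at *CD81* and 2 at *MEST*. On the autosomes 0.670% of such windows met the rule, so the absence is no result about these genes. Within 200 kb there were 2 loci, chr29:49319001-49319100 and chr29:49389001-49389100, at 106177 and 176177 bp from the site of *CD81*, a tetraspanin gene at the edge of the *IGF2* imprinted domain. The first had 47.1% ± 6.72 with cytosines between 30.8 and 60.8%, and the second 54.8% ± 5.86 with cytosines between 36.4 and 84.9%. They are among the 8 windows of chr29:49000001-50000000, of which 2 had every cytosine at 25 to 75%. In the RefSeq gene order of the Tharparkar assembly NIAB-ARS_B.indTharparkar_mat_pri_1.0, *CD81* is followed by *TSPAN32*, *ASCL2*, *TH*, *INS* and *IGF2*, and the position of the 8 windows among these genes was not determined.

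Around *GNAS* and *MEST* the measured windows were intermediate too, and they differed from the half-methylated windows in both spreads. Within 50 kb of the *GNAS* site 12 of 24 windows with at least 4 cytosines had a mean of 35 to 65%, and 1 to 6 animals lay outside the bounds in each. In all 12 every cytosine had a mean of 25 to 75%. The distance between the highest and the lowest cytosine had a median of 9.54 (2.74 to 42.9) at *GNAS*, against 48.5 in the half-methylated windows and 33.2 in all other intermediate windows. The SD between animals had a median of 10.9 (6.78 to 19.2) there, near the 9.60 of all other intermediate windows, which like the *GNAS* windows each have an animal outside the bounds. The *GNAS* window nearest to the rule, chr13:57518301-57518400, had 11 cytosines between 35.9 and 52.5% and animals from 34.6 to 56.7%. At *MEST*, both windows measured had cytosines within 2.34 points of each other, and animals ran from 42.9 to 75% in chr4:94249701-94249800 and from 27.3 to 90% in chr4:94250901-94251000. The comparison is descriptive, since the bounds on the animals define the half-methylated windows.

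**Figure D4:**
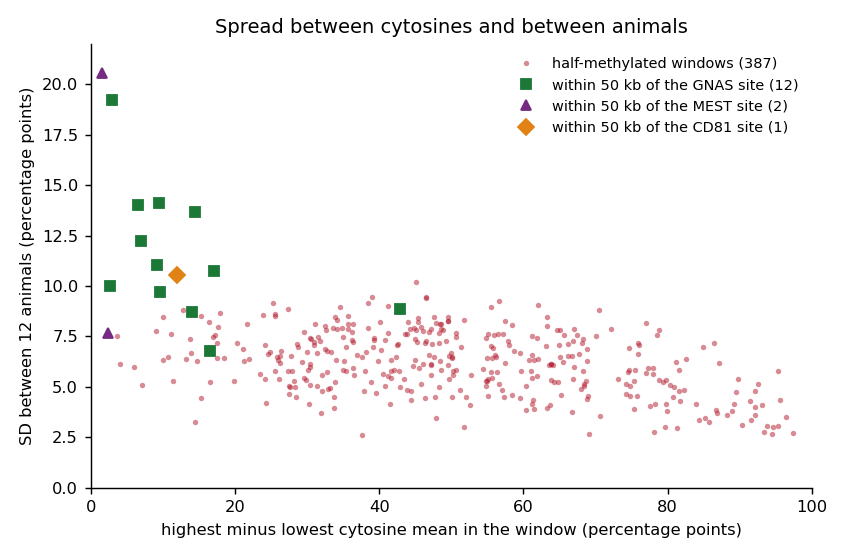
SD between the 12 animals (percentage points, vertical axis) against the distance between the highest and the lowest cytosine mean (percentage points, horizontal axis). The 387 half-methylated windows (red dots) have an SD of at most 10.2, a spread that their rule bounds, and distances from 3.70 to 97.4. The intermediate windows within 50 kb of listed sites of *GNAS* (12, squares), *MEST* (2, triangles) and *CD81* (1, diamond) lie at distances from 1.62 to 42.9 with SDs from 6.78 to 20.6.

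The study compared Tough with Tender animals, and few of the half-methylated windows passed a test of the difference. The bounds cap any difference at 30 points, so the counts are read only beside those over all windows. By logistic regression with a chi-square test and Benjamini-Hochberg adjustment over all 193249 windows, 1 of 387 had an adjusted p-value under 0.05, where 0.288% of all windows did. None had in addition a difference above 25 points, where 0.0217% of all windows did. An unadjusted p-value under 0.05, in either direction, was found in 29 (7.49%), against 8.76% of all windows. The share near the background is no result about these windows.

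Over the 387 windows the mean level per animal was 49.9% ± 0.909 (SD, n = 6) in Tough, from 48.6 to 51.1%, and 50.8% ± 0.306 (n = 6) in Tender, from 50.5 to 51.3%. The groups overlapped. The level was higher in Tender in 228 windows (58.9%), compared with 56.1% of all autosomal windows with at least 4 cytosines and 61.3% of the other intermediate windows. The pooled difference, Tender minus Tough, ran from -7.80 to 11.9 points, was above 10 points in size in 2 windows and had a median size of 2.52 points. No animal carried the extremes alone, but the library of Tough 2 was the lowest animal in 65 windows and that of Tender 2 the highest in 50, each more than any other library.

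The called window was chr2:63733101-63733200, with 4 cytosines and 23.1 reads per cytosine. In Tough animals the lowest level was 38.7%, the median 49.6% and the highest 54.2%. In Tender animals they were 54.3, 60.8 and 62.8%. The groups therefore did not overlap, but the highest Tough and the lowest Tender animal were almost level, and it was the only 1 of the 387 windows without overlap, where 0.177% of all windows had none. The means were 49.0% ± 5.61 and 59.9% ± 3.06 (SD, n = 6 each), a difference of 10.95 points. The adjusted p-value of the logistic regression was 0.0330. The exact two-sided permutation test gave p = 0.00216, the smallest it can give, for a window already chosen by its call on the same contrast. On the plus-strand cytosines alone the difference was 8.04 points (exact permutation p = 0.245) and on the minus-strand cytosines 14.6 points (exact permutation p = 0.0238). The study's spike-in controls split the libraries into a group of higher bisulfite conversion (Tough 2, Tough 5, Tough 6, Tender 2 and Tender 5) and a group of lower conversion (the other 3 Tough and 4 Tender animals). The difference was 8.04 points in the higher group, where 3 against 2 animals cannot give an exact permutation p below 0.1. It was 14.1 points in the lower group (exact permutation p = 0.0286, the smallest that 3 against 4 animals can give). The p-values by strand and by conversion group belong to this same window chosen by its call. Each of its 4 cytosines was higher on average in Tender, from 45.01 against 53.0% at position 63733110 to 55.7 against 72.9% at position 63733154. No other cytosine was measured within 1 kb. The call was lost with an F-test (adjusted p = 0.884) and with limma (0.995), each of which called 0 of all 193249 windows. It was also lost with reads before the authors' scaling (0.0646), and when Tough 4 (0.139), Tender 3 (0.0661) or Tender 6 (0.0669) was left out.

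At the 10 loci with the most windows the groups overlapped. The smallest exact p-value among them belonged to chr17:72825701-72825900. Its lowest, median and highest levels were 37.3, 39.1 and 46.7% in Tough and 42.7, 46.1 and 48.1% in Tender. Tender was higher by 5.29 points (40.2% ± 3.51 against 45.5% ± 2.26, exact permutation p = 0.0130, unadjusted), and the lowest adjusted p-value of its windows was 0.295. With the mean of its cytosines taken without weights the difference was 2.24 points (exact permutation p = 0.472), and on the minus-strand cytosines it was 3.28 points (exact permutation p = 0.409). The other 9 differed by -0.455 to 5.87 points, with exact p-values from 0.139 to 0.894.

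**Figure D5:**
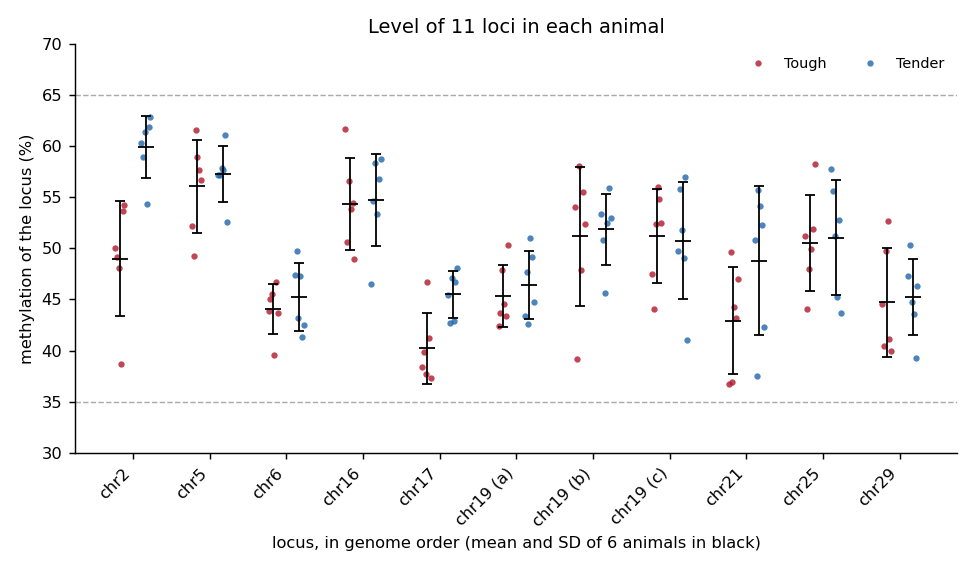
Methylation level (%) of 11 loci in each animal, for Tough (red) and Tender (blue), with the mean and SD of 6 animals in black and the bounds of 35 and 65% dashed. Only at the chr2 locus do the groups not overlap (Tough up to 54.2%, Tender from 54.3%).

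A total of 8 loci lay within 10 kb of a site that the study lists as differentially methylated, and they were chosen by that distance after the values had been seen. The study listed those sites because the same 12 libraries differed there between Tough and Tender, so the group values at the 8 loci are given as description with no test. The locus chr14:65310501-65310600 contained a listed CpG in a CpG island assigned to *LOC112449632*. Its lowest, median and highest levels were 35.1, 42.0 and 50.0% in Tough and 42.9, 48.8 and 56.9% in Tender, a difference of 7.75 points with overlapping groups. Its plus-strand cytosine at 65310584 had 13.2% and its most methylated cytosine 69.4%. The difference was 10.97 points on the plus-strand and 3.03 points on the minus-strand cytosines of the same 5 CpGs. It was 14.2 points among the libraries of higher bisulfite conversion and 2.62 points among those of lower conversion, and the part of conversion in it was not tested.

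Near *CRIP2*, which encodes a LIM domain protein expressed in heart and vessels, there were 2 loci. The first, chr21:69747601-69747700, contained a listed exonic CpG and had 52.6% ± 4.63 in Tough and 56.6% ± 5.57 in Tender. Its cytosines were split by position, with the first 4 between 28.96 and 44.7% and the last 5 between 71.6 and 92.8%. The second, chr21:69752701-69752800, lay 5070 bp from a listed site and had 38.8, 42.7 and 51.5% (lowest, median, highest) in Tough and 44.7, 49.8 and 58.1% in Tender. The groups overlapped, and the difference was 7.62 points. It was 3.64 points among the libraries of higher conversion and 10.3 points among those of lower conversion.

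The locus at *TBX2*, a T-box transcription factor of heart and limb development, was chr19:11689201-11689300, 2309 bp from a listed exonic CpG of a CpG island. Its 15 cytosines ran along the window from 23.0% at the first to between 59.0 and 69.96% at the last 5, and the plus strand was higher in 11 of 12 animals (54.9% ± 10.8 against 37.9% ± 7.16, exact sign-flip p = 0.00391). The last 5 were read on the plus strand only, and the 3 CpGs read on both strands had 36.8% ± 10.7 and 37.6% ± 8.18. The locus 41 bp from the listed exonic CpG of *AJM1*, an apical junction gene, was chr11:105931301-105931400. It had 31.0% ± 9.67 on the plus strand and 58.8% ± 10.1 on the minus strand, with the minus strand higher in 12 of 12 animals (exact sign-flip p = 0.000488), while the strands of its only CpG read on both had 48.9% ± 18.9 and 59.6% ± 18.0, each higher in 6 of 12 animals. The loci near *RASIP1* (chr18:55365001-55365100), a Ras-interacting protein of vessels, *SYT2* (chr16:80054501-80054600), a synaptic calcium sensor, and *DNLZ* and *GPSM1* (chr11:103815501-103815600) had levels of 56.8% ± 4.08, 50.5% ± 8.11 and 47.9% ± 5.15 (n = 12 each). Tough and Tender differed by at most 1.02 points in size at these 3 loci.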

How the data were processed

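RRBS was measured in *Longissimus thoracis* of 6 Tough and 6 Tender animals, grouped by the labels. Per the submitters' processing notes and the paper's methods, the authors used Trim Galore 0.4.1 for trimming and Bismark 0.23.0 for alignment to ARS-UCD1.2 (bosTau9), and methylKit 1.8.1 kept cytosines with at least 10 reads and not above the 99.9th percentile of coverage. The deposited values are scores and not counts, since the authors scaled the reads of each animal (by 1 to 1.27) and rounded them. The planned logistic model on counts was kept on these scores, as methylKit fits it, and whole reads were recovered for an alternative (0 of 7625628 values failed).

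Scaled reads of the 635469 cytosines were summed over 100 bp windows. Groups were compared by logistic regression with the McCullagh-Nelder overdispersion factor, a chi-square test and Benjamini-Hochberg adjustment over all windows, and at named loci by exact permutation of 6 against 6 animals. The code was tested on simulated data. The members and lists were chosen with earlier results of these data known. Named loci are the 10 with the most windows (ties by cytosines, then position), loci within 50 kb of a gene on the imprinted list, called windows, and the 5 loci of 2 or more windows with the smallest SD. Other loci are marked where named. Genes and locations come from the study's site lists. Sequence features were not analysed here. Alternatives were other bounds, window sizes, cytosine minimums, tests, strands, conversion groups and leaving out each animal. Python 3.11.15, numpy 2.4.6, pandas 2.3.3, scipy 1.17.1 and limma 3.58.1 were used. Reads of the same molecule were not told apart, so counting errors are lower limits.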

Additional observations from a re-analysis of the deposited data

Results flagged for a closer look

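Of 64 groups of 6 animals tested at 32 named loci, 1 held an animal far from the others by Dixon's test, and chance alone would flag about 1 in 20 groups. At chr11:104085601-104085700, Tough 3 had 63.7%, where the next highest Tough animal had 52.9% and the lowest 46.9%.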

How the results depend on the processing

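The number of half-methylated windows followed the rule closely. It was 47 (47 loci) with bounds of 40 to 60, 1195 (1118 loci) with bounds of 30 to 70, 874 (856 loci) with at least 2 cytosines and 160 (157 loci) with at least 6. Leaving out 1 animal gave 410 to 454 windows and 395 to 437 loci. With cytosines weighted equally there were 373, of which 288 were among the 387, and with unscaled reads 394, of which 374 were. A grid shifted by 50 bp gave 349 and windows of 200 bp gave 505. The windows with every cytosine at 30 to 70% numbered 86. Within 200 kb of a listed imprinted gene there were 2 loci. Among the 387 windows 46 were called between groups without the overdispersion factor, where 24162 of all 193249 windows were. With conversion group as a covariate 2 were called, where 909 of all windows were. The F-test and limma called 0 of the 387 and 0 of all windows, with 15 and 0 of the 387 at an unadjusted p under 0.05. Unscaled reads gave 0 calls (29 at an unadjusted p under 0.05), where 460 of all windows were called. The F-test on unscaled reads, added after the data had been seen, called 0 in both (16 of the 387 at an unadjusted p under 0.05). An adjusted p under 0.01 gave 0, where 135 of all windows passed. Leaving out 1 animal gave 0 to 3 calls, none with a difference above 25 points, where 631 to 923 of all windows were called. The direction of the group difference, none past the exact permutation test with all 12 animals and the main settings, reversed at chr5:25985601 (-1.27 in the lower conversion group), chr16:24347901 (-3.09 on the minus strand, -3.15 in the lower conversion group), chr19:27545101 (-0.584 unweighted, -2.16 on the plus strand, -2.22 in the lower conversion group), chr19:44156701 (0.892 on the plus strand, 5.94 in the higher conversion group), chr21:67757901 (-1.68 in the higher conversion group), chr25:1356601 (-0.228 in the lower conversion group) and chr29:49541801 (-0.959 on the minus strand, -3.49 in the lower conversion group). Leaving out 1 animal gave -0.179 to 2.30, -0.730 to 1.99, -1.73 to 2.06, -1.88 to 1.48, 4.49 to 8.13, -0.868 to 2.02 and -0.485 to 2.12 at these loci in the same order. The smallest exact permutation p with 1 animal left out was 0.0390 among them, at chr21:67757901. At chr2:63733101 the difference was 8.90 to 12.1 without 1 animal, 8.04 in the higher conversion group and 14.1 in the lower. The causes were not tested. No paired analysis was possible because the 2 groups hold different animals, whose numbers only name them in the order of the samples. A depth of 10 reads limits single cytosines.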
